A study of Mus musculus with 4 samples.

Results

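The antioxidant and glutathione genes examined here are Nqo1, Hmox1, Gclc, Gclm, Gpx3, Gstm1, Sod1, Sod3, Cat and Txnrd1, 10 of the 27827 gene names on the array. They were taken by name, as every non-control probe that carries one of these names, which gave 13 probes. Of these, 10 probes for 8 genes were well above background on all 4 arrays and were compared between genotypes, while the probes of Gpx3 and Sod3 and 1 dim Sod1 probe were not tested. The cells were mouse embryonic fibroblasts (MEFs), which grow out of dissociated embryos. Embryos at E14 came from 1 heterozygous mother mated with a heterozygous male, so that the lines of both genotypes are littermates. The first genotype was Ip6k1+/+, the wild-type allele, with 2 lines. The second, the knockout, was Ip6k1-/-, which lacks the kinase that makes the inositol pyrophosphate 5-IP7, also with 2 lines. All 4 lines had been immortalised with SV40 large T antigen and were harvested while growing, without any treatment, so that each carries the viral protein as well as its own genotype. From each line, Cy3-labelled RNA was hybridized to 1 array, and the arrays shared 1 slide.

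These genes serve 2 linked systems that keep reactive oxygen species in check. The transcription factor NRF2, which KEAP1 holds back in unstressed cells, binds antioxidant response elements and drives enzymes that detoxify quinones, degrade haem and make glutathione. Glutathione, a tripeptide, is then used by peroxidases to reduce peroxides and by transferases to tag electrophiles, and thioredoxin reductase runs a parallel pathway. Superoxide dismutases and catalase act directly on superoxide and hydrogen peroxide. In fibroblasts many of these enzymes are expressed at rest, and many respond to oxidants and electrophiles.

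Promoter sequences are shown because NRF2 drives some enzymes of these pathways, and because the letters of the response element core can be read in them. The members were grouped as antioxidant and glutathione genes, not as NRF2 targets. The RefSeq table of mouse promoters (GRCm38.p6, windows from 250 bases before to 50 after each start) held 10 windows for 7 of the 10 genes. Hmox1, Gclc and Sod3 had no window and were not searched, nor was any sequence outside the windows. The motif TGACNNNGC, searched on both strands, was found in 3 of these 10 windows, in Gclm, Txnrd1 and Sod1. The motif was held by 12.4% of all 32851 windows, and by 22 of 116 windows (19.0%) of the wider antioxidant list described further on. A match of letters is a description and not evidence of binding. The windows around the 3 matches are given 5′ to 3′ on the gene's strand, with the motif, which lies on the opposite strand in each, in capitals.
Gclm, chr3:122245407-122245447, motif at -134 to -126 from the start: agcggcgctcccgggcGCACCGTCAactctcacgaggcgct
Txnrd1, chr10:82859098-82859138, motif at -92 to -84 from the start: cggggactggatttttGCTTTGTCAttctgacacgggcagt
Sod1, chr16:90220690-90220730, motif at -56 to -48 from the start: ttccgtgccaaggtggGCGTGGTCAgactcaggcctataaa

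All levels below are log2 signals relative to the 75th percentile of the array, so that 0 marks that percentile, and a difference is the Ip6k1-/- mean minus the Ip6k1+/+ mean. The share of probes well above background ranged from 52.0% to 55.5% over the arrays. The levels of different probes cannot be set against each other, because each probe binds its target with its own strength. Probe positions are those in the array files, on mouse build mm9. The targeted gene was lower in both knockout lines on each of its 3 probes. An Ip6k1 probe at chr9:107948209-107948268 read 0.35 and 0.39 in the wild-type lines and did not clear the background in the knockout lines, a signal at least 34.0-fold higher in Ip6k1+/+ MEFs (limma with Benjamini-Hochberg adjustment, adjusted p = 0.0355). Another Ip6k1 probe, at chr9:107950832-107950891, still gave a signal in the knockout lines, of -1.98 and -1.23 beside 2.46 and 2.61 (difference -4.13, limma adjusted p = 0.367). The cells were checked against fibroblast markers, of which 10 of 11 were above background on all 4 arrays and 4 were saturated on at least 3. The summed log2 level of the 7 markers without saturation was 7.24 and 7.66 in the wild-type lines and 6.82 and 6.81 in the knockout lines, with differences such as -2.40 for Dcn, -1.25 for Col3a1, -1.20 for Pdgfrb and 1.03 for Thy1. Its part in the differences described below was not tested. Of the other cell types' markers, Kdr was above background on all 4 arrays among 5 endothelial markers (Pecam1, Cdh5, Tek and Tie1 on none), Cd68 among 4 macrophage and leukocyte markers (Ptprc on none) and Krt18 among 6 epithelial markers (Cdh1 on none).

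None of the 8 tested genes passed limma's test with Benjamini-Hochberg adjustment across the 21572 tested probes (threshold 0.05), and 1, Gstm1, had an unadjusted p under that threshold. By the same test and with 1 probe per gene, 1 of 14334 genes tested was called (0.00698%). That gene was not Ip6k1, whose chosen probe had a limma adjusted p of 0.367. By the fold cutoff that the study used, a difference of at least 1 on the log2 scale, no member was higher in Ip6k1-/- MEFs, beside 1.83% of all genes tested. Gstm1 was lower past this cutoff, beside 4.65% of all genes tested. Both Ip6k1-/- lines lay above both Ip6k1+/+ lines for no member, against 18.2% of all genes tested, and below both for 2 of 8, Nqo1 and Gstm1, against 13.2%. Differences had a positive sign for 4 genes and a negative sign for 4. The median difference of the members was 0.01, where the median over all genes tested was 0.04, and leaving out 1 line at a time moved it between -0.32 and 0.20, so that its sign is not settled. With 2 lines per genotype the intervals are wide, so that a 2-fold difference in at least 1 direction lies inside the 95% interval of 6 of the 8 genes. The limma adjusted p was at least 0.99 for 99.7% of all genes tested, so such a value is not evidence that a gene is unchanged.

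**Figure D1:**
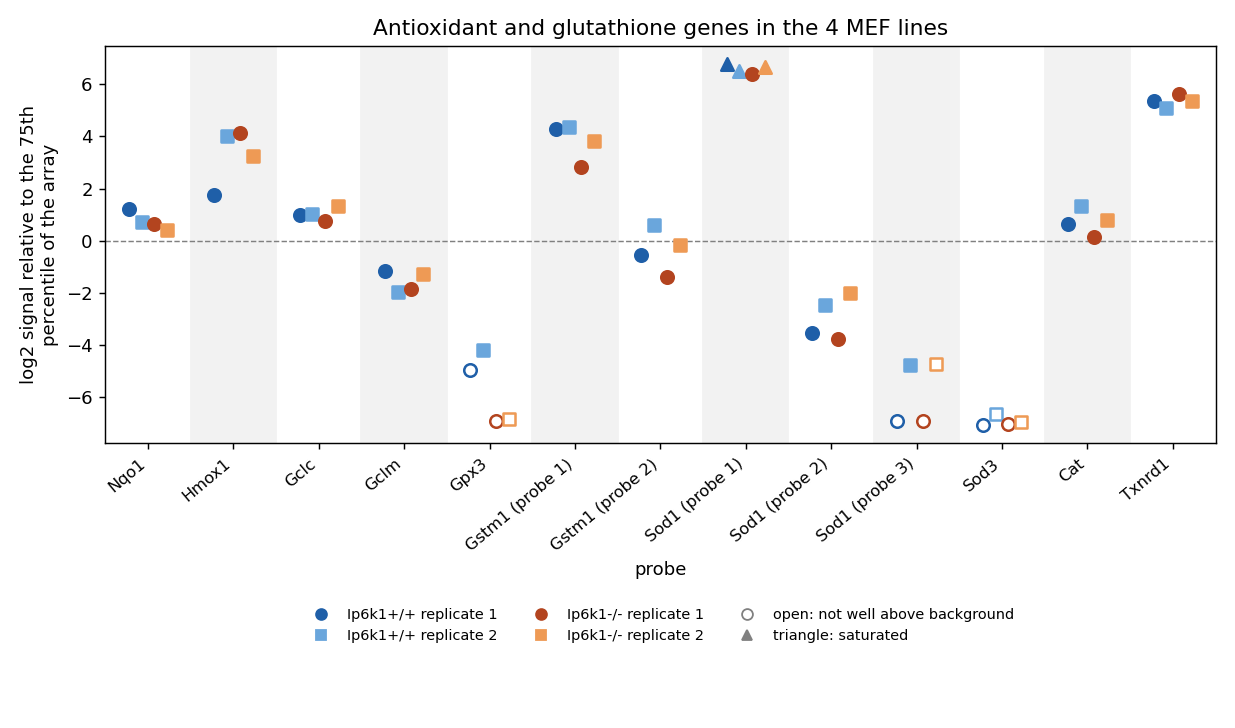
Log2 signal of the 13 probes of the antioxidant and glutathione genes, relative to the 75th percentile of the array, in each of the 4 MEF lines. Open symbols were not well above background and triangles were saturated. The lines of the genotypes are mixed on most probes, the Hmox1 signal of Ip6k1+/+ replicate 1 lies below its other 3 lines, and both Ip6k1-/- lines lie below both Ip6k1+/+ lines for Nqo1 and for the first Gstm1 probe among the probes tested.

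Nqo1 encodes the quinone reductase that is the textbook target of NRF2. Its probe, at chr8:109912440-109912499, read 1.22 and 0.72 in the wild-type lines and 0.63 and 0.40 in the knockout lines. Both knockout lines were thus the lower ones, but by a margin of 0.09 between the nearest lines of different genotype, which is less than either genotype's own lines differed. The difference was -0.45 (standard error 0.28, 95% interval -1.18 to 0.27, limma adjusted p = 0.993).

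Hmox1, the inducible haem oxygenase, breaks haem down to biliverdin, iron and carbon monoxide. On its probe at chr8:77624207-77624266 the Ip6k1+/+ lines read 1.74 and 4.03 and the Ip6k1-/- lines 4.13 and 3.25. The low line was Ip6k1+/+ replicate 1, and the other 3 lines lay between 3.25 and 4.13, so that the genotypes overlapped. Only 3.08% of the genes tested had Ip6k1+/+ lines at least as far apart as the 2.30 seen here. The difference between genotypes was 0.80 (standard error 0.82, 95% interval -1.33 to 2.94, limma adjusted p = 0.993). Without Ip6k1+/+ replicate 1 it was -0.35, and without Ip6k1+/+ replicate 2 it was 1.95, so that 1 line sets its sign.

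The glutamate-cysteine ligase subunits carry out the first and rate-limiting step of glutathione synthesis. Gclc is the catalytic subunit, and its probe at chr9:77641296-77641355 read 0.99 and 1.03 in the wild-type lines and 0.76 and 1.34 in the knockout lines. The knockout lines lay on either side of the wild-type lines, and the difference was 0.04 (standard error 0.28, 95% interval -0.69 to 0.77). Gclm, the modifier subunit that makes the catalytic subunit more efficient, read -1.16 and -1.95 in the wild-type lines and -1.86 and -1.29 in the knockout lines. Its 4 values interleaved, with a difference of -0.02 (standard error 0.42, 95% interval -1.11 to 1.08). Neither interval excludes a modest difference, and for Gclm a 2-fold difference in either direction is inside it. The Gclm probe is placed from 121962174 to 121964809 on chromosome 3, a span longer than the probe.

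**Figure D2:**
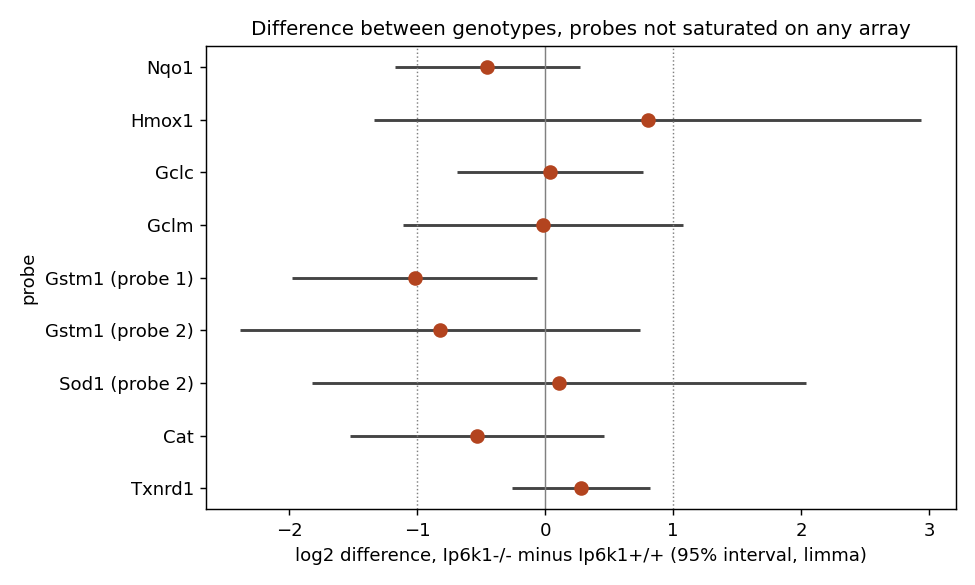
Log2 difference between Ip6k1-/- and Ip6k1+/+ MEFs for the 9 tested probes that were not saturated, with limma's 95% interval. Dotted lines mark a 2-fold difference. The interval of the first Gstm1 probe, from -1.98 to -0.06, is the one that leaves out 0, and its adjusted p was 0.993.

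Gpx3 encodes the secreted plasma glutathione peroxidase. The 4 lines read -4.95 and -4.20 in Ip6k1+/+ and -6.93 and -6.84 in Ip6k1-/- MEFs, on a probe at chr11:54723436-54723495. This signal was well above background on 1 array, that of Ip6k1+/+ replicate 2, and therefore did not enter the test. Both wild-type lines were the brighter ones. Set against the lowest signal that counted as well above background on the knockout arrays, the Ip6k1+/+ mean was at least 1.10-fold higher, a mean that includes the reading of replicate 1, which was itself not well above background. The first 30 bases of this 60-base probe are shown because a dim reading rests on this sequence alone.
Gpx3 probe: ttttttcagctttctgttccaaatgagccc

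Gstm1, a mu-class glutathione transferase that conjugates glutathione to electrophiles, was the member with the largest difference in size among those tested. It has 2 probes, near each other on the minus strand of chromosome 3, and 30 bases of each are shown because they read at different strengths. The first, whose last 30 bases hold the polyadenylation signal AATAAA in capitals, lies at chr3:107815180-107815239. Of all probes, 4.78% hold this signal on their own strand, anywhere in the probe. The second, of which the first 30 bases are given, lies at chr3:107815564-107815623.
Gstm1 probe 1: tctgtctcgtctacAATAAAgtctgaaaca
Gstm1 probe 2: actggagtaacaagtaggcccttgctacac
On the first probe the Ip6k1+/+ lines read 4.28 and 4.38 and the Ip6k1-/- lines 2.81 and 3.81. Both knockout lines were below both wild-type lines and 0.99 apart, while the wild-type lines were 0.10 apart. The difference was -1.02, a 2.03-fold lower mean signal (standard error 0.37, 95% interval -1.98 to -0.06, limma unadjusted p = 0.0410 and adjusted p = 0.993). On the second probe the Ip6k1+/+ lines read -0.54 and 0.61 and the Ip6k1-/- lines -1.40 and -0.17, so that the genotypes overlapped, with a difference of -0.82 (standard error 0.60, 95% interval -2.38 to 0.74). Both probes thus had a negative sign, and in both the lowest line was Ip6k1-/- replicate 1. Without that line the first probe's difference was -0.52, and without Ip6k1-/- replicate 2 it was -1.51. In RNA from a culture, fewer cells that express a gene and less RNA per cell cannot be told apart.

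Sod1 encodes the cytosolic copper-zinc superoxide dismutase and Sod3 the secreted form. Sod1 has 3 probes, shown by their first 30 bases because they carry the same gene name but gave very different signals. Probe 1 is annotated to the RefSeq transcript NM_011434, and probes 2 and 3 to the cDNA BC057074.
Sod1 probe 1, chr16:90226497-90226556: cagtaaacattccctgtgtggtctgagtct
Sod1 probe 2, chr16:90224181-90224240: ccttcttaaaagccaaggtctttaaatgtg
Sod1 probe 3, chr16:90223273-90223332: gtattttatttagtatcaagtattgcttgc
Probe 1 read 6.78 and 6.50 in the wild-type lines and 6.38 and 6.65 in the knockout lines, and it was saturated on 3 of the 4 arrays, so that no fold is given. Probe 2 read -3.55 and -2.47 in the wild-type lines and -3.79 and -2.02 in the knockout lines. Its replicate 2 lines were the brighter ones in both genotypes, and the difference was 0.11 (standard error 0.74, 95% interval -1.82 to 2.04). Probe 3 was well above background in Ip6k1+/+ replicate 2 alone. Probe 1 is placed at position 575 of its transcript. Probes 2 and 3 are placed at positions 3207 and 2299 of theirs, yet lie before probe 1 on the plus strand. They may thus read RNA other than the spliced mRNA that probe 1 reads, which was not tested. The value that stands for Sod1 in the counts is that of probe 2, and the bright probe 1 could not be compared at saturation. Sod3 did not clear the background on any array, with readings from -7.10 to -6.66.

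Cat encodes catalase, which breaks hydrogen peroxide down in peroxisomes. Its probe at chr2:103294660-103294719 read 0.65 and 1.34 in the wild-type lines and 0.12 and 0.80 in the knockout lines. In each genotype the replicate 2 line was above the replicate 1 line, by 0.69 in Ip6k1+/+ and 0.68 in Ip6k1-/- MEFs, and the genotypes overlapped. The difference was -0.54 (standard error 0.38, 95% interval -1.53 to 0.46, limma adjusted p = 0.993).

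Txnrd1 encodes the cytosolic thioredoxin reductase, a selenoprotein that keeps thioredoxin reduced with electrons from NADPH. On its probe at chr10:82360230-82360289 the Ip6k1+/+ lines read 5.36 and 5.08 and the Ip6k1-/- lines 5.64 and 5.36. The higher wild-type line and the lower knockout line were alike, so that the groups met without separating. The difference was 0.28 (standard error 0.21, 95% interval -0.26 to 0.82, limma adjusted p = 0.993), the narrowest interval among the 8 genes, and it leaves out a 2-fold difference in either direction.

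The members also differed between lines of 1 genotype. Replicate 2 minus replicate 1 had the same sign in both genotypes for 6 of the 8 members, beside 62.9% of all genes tested. Hmox1 and Gclm were the 2 with opposite signs. Sod1 stands in these counts by its dim probe 2, which differed between lines by 1.08 in Ip6k1+/+ and by 1.77 in Ip6k1-/- MEFs. The bright Sod1 probe 1, saturated on 3 of the 4 arrays, differed by -0.28 in Ip6k1+/+ and 0.27 in Ip6k1-/- MEFs. Txnrd1 differed by -0.28 in both genotypes. Hmox1 and Sod1, the latter on probe 2, were the members whose Ip6k1+/+ lines were at least 1 apart, as were those of 14.03% of all genes tested. Of 4 adipocyte markers, Fabp4 moved with the replicate number, from 1.56 to -3.91 in the wild-type lines and from 1.54 to -4.10 in the knockout lines. Pparg read 0.99 and -1.76 in the wild-type lines and -1.50 and -1.03 in the knockout lines, and Adipoq and Cfd were above background on no array. The summed log2 level of the 4 went from 2.31 to -1.42 and from 1.72 to -0.83. Its part in these line differences was not tested.

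**Figure D3:**
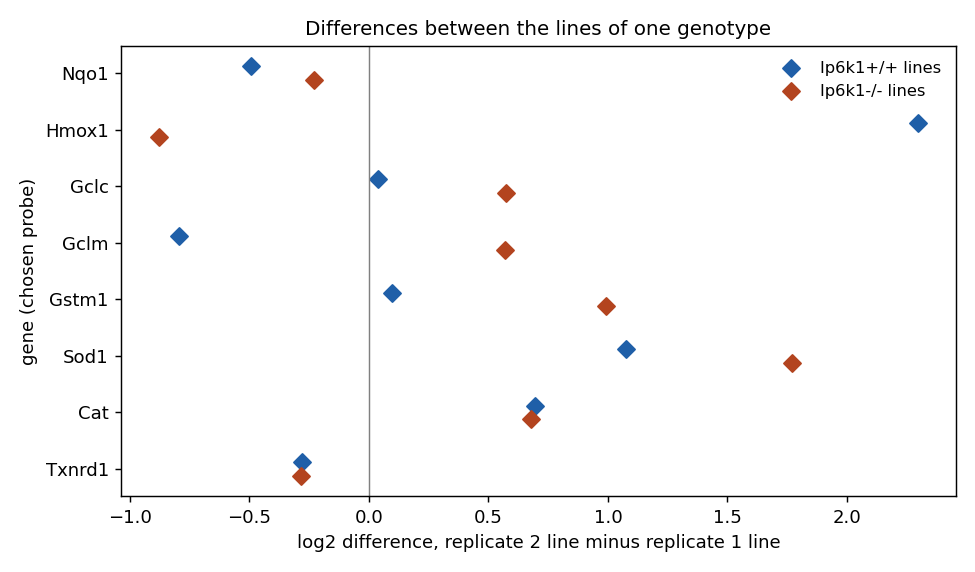
Log2 difference between the replicate 2 and the replicate 1 line of each genotype, for the 8 tested members on 1 probe each. Sod1 is shown on its dim probe 2. Points of a gene on the same side of 0 differ in the same direction in both genotypes, which Cat (0.69 and 0.68) shows and Hmox1 (2.30 and -0.88) does not.

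For each member, the gene of a wider antioxidant list whose 4 values ran most alike was taken as a description over 4 lines, among 86 candidates. The pairs were Nqo1 with the transferase gene Gstt1 (Pearson r 0.98), Hmox1 with Chac1 (0.98), Gclc with Glrx3 (0.94), Gclm with Maff (0.98), Gstm1 with Gstm3 (0.96), Sod1 with Gsto2 (0.97), Cat with Mt1 (0.98) and Txnrd1 with Prdx5 (1.00). Sod1 entered with its dim probe 2. With 4 points and this many candidates, such values are a description of these lines alone.

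The wider list held 96 genes of the same pathways, of which 95 were on the array and 87 were tested. None passed limma's adjusted test, and 4 had an unadjusted p of at most 0.05 (4.60%, beside 3.71% of all genes tested). By the 2-fold cutoff 1 was higher (1.15%) and 5 were lower (5.75%) in Ip6k1-/- MEFs, shares near those over all genes. Both Ip6k1-/- lines lay above both Ip6k1+/+ lines for 15 genes and below for 15 (17.2% each, beside 18.2% and 13.2% of all genes tested). The list's median difference was -0.01.

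Among the 7 controllers of the NRF2 response, on their chosen probes, the genotypes overlapped for 6, and both knockout lines of Bach1 were below both wild-type lines (0.47 and 0.40 against 0.12 and -0.16). Both knockout lines were below both wild-type lines for 13.2% of all genes tested, so 1 gene of 7 does not set this group apart. The median difference of the 7 genes was -0.06, from -0.45 for Bach1, a repressor of haem oxygenase, to 0.08 for Mafg, a small MAF partner. Nfe2l2, which encodes NRF2, differed by -0.04 (standard error 0.31), and Keap1 by -0.01 (standard error 0.30). The median was 0.10 for the 11 genes of quinone and haem detoxification whose probe was not saturated. It was 0.01 for 10 genes of glutathione synthesis and supply and 0.09 for 5 glutathione peroxidase genes. For the 3 tested genes of the superoxide dismutase group, which include Ccs, not itself a dismutase gene, the median was 0.11. That is the value of Sod1 on its dim probe 2. The median was -0.05 for 11 genes of catalase, peroxiredoxins and sestrins and 0.17 for 10 of the thioredoxin and glutaredoxin systems. For 6 genes of NADPH supply it was 0.09, and for 3 metallothioneins -0.31. None of these groups had a gene past the 2-fold cutoff on its chosen probe. Glo1, the glyoxalase that clears methylglyoxal with glutathione, differed by -0.61, and Txnip, which binds and inhibits thioredoxin, by -0.88 on its chosen probe, both with an unadjusted p of at most 0.05 and a limma adjusted p of 0.993. A second, dimmer Txnip probe, not above background in Ip6k1-/- replicate 2, differed by -1.19.

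**Figure D4:**
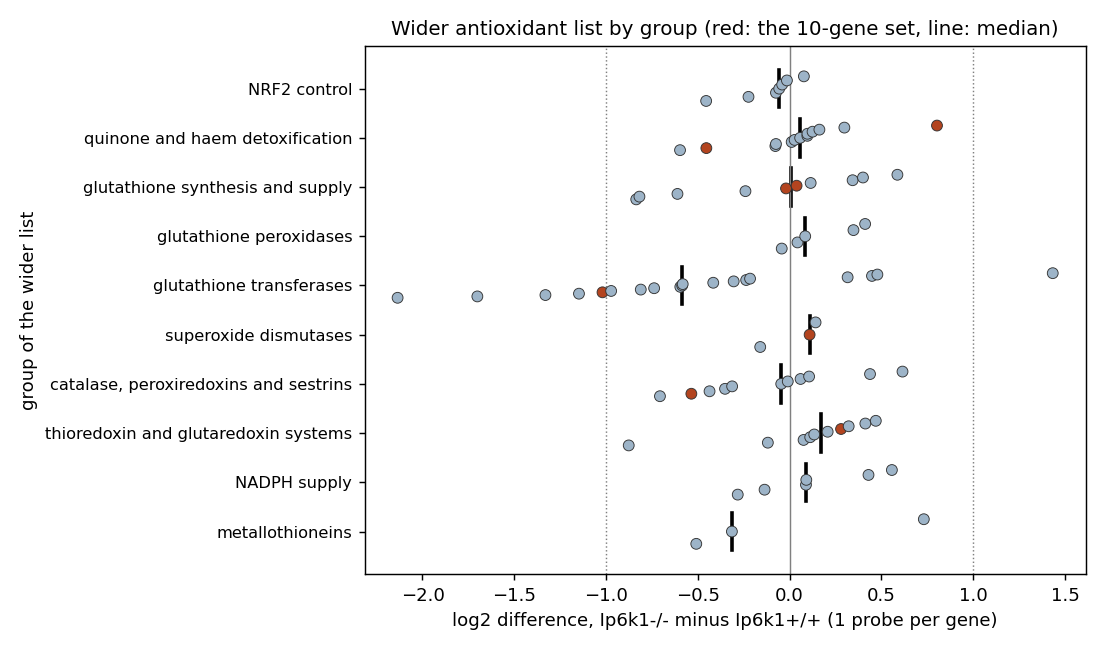
Log2 difference between Ip6k1-/- and Ip6k1+/+ MEFs for the 87 tested genes of the wider list, on 1 probe each, by group, with 4 saturated probes included. Red points belong to the 10-gene set, black lines are group medians and dotted lines mark a 2-fold difference. The glutathione transferases have a median of -0.59, and every gene past a dotted line is in that group, 3 of the 6 with 1 array not above background.

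The glutathione transferases stood furthest from 0 among these groups. Of 23 genes listed, 22 were on the array and 19 were tested, and 15 of the 19 had a negative difference, with a median of -0.59, where 45.1% of all genes tested had a negative difference. Above background on all 4 arrays were 15 of them, of which 12 had a negative difference, with a median of -0.58. On the chosen probes, the 6 genes of the wider list past the 2-fold cutoff were transferases, and none passed the adjusted test. Of these, Mgst2, Gstt1 and Gsta3 entered through the genotype where they are brighter, each with 1 array not above background, and with all 4 arrays required 3 were lower and 0 higher. Mgst2, a microsomal transferase, read -1.31 and -0.31 in the wild-type lines and -1.15 and -4.74 in the knockout lines, a difference of -2.14 set by 1 knockout line that was not well above background. Gstk1, the mitochondrial and peroxisomal form, likewise read 0.67 and -3.63 in the knockout lines beside -0.06 and -0.60, a difference of -1.15. Gstt1, of the theta class, read -2.27 and -3.49 in the wild-type lines and -3.68 and -4.74 in the knockout lines, with 1 array not above background and a difference of -1.33. Gsta3, of the alpha class, was the 1 gene higher past the cutoff, with readings of -6.29 and -5.03 in Ip6k1+/+ and -4.54 and -3.92 in Ip6k1-/- MEFs, all near the background, and a difference of 1.43. A second Gsta3 probe was above background on no array. Leaving out any 1 line kept the median of the group below 0, from -0.72 to -0.34, with 13 to 17 negative differences. These checks were not planned for the group, and the subsets share arrays, so they are not independent support.

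Gstm1 lies among 6 related genes on chromosome 3, and this family was set out after its values were seen. Of the 7 Gstm genes, 6 were tested, all 6 had a negative difference, and both Ip6k1-/- lines were below both Ip6k1+/+ lines for 4 of them, where 45.1% and 13.2% of all genes tested did so. The median was -0.78, from -1.70 to -0.22. Gstm4 had the largest difference, with -2.67 and -1.84 in the wild-type lines and -3.77 and -4.14 in the knockout lines (-1.70, standard error 0.43, limma unadjusted p = 0.0116 and adjusted p = 0.993). Gstm3 read 2.19 and 2.78 against 0.94 and 2.08, a difference of -0.97, with both knockout lines lower. Gstm2 read 0.58 and 2.95 in the wild-type lines and -0.20 and 2.56 in the knockout lines, so that the replicates lay further apart than the genotypes. Gstm5 differed by -0.22 and Gstm7 by -0.60, the latter with a gap of 0.06 between genotypes and 1 knockout line not above background, and Gstm6 did not clear the background on any array. These paralogs are alike in sequence, so a probe of 1 may also bind transcripts of another, and their values are not independent of each other.

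**Figure D5:**
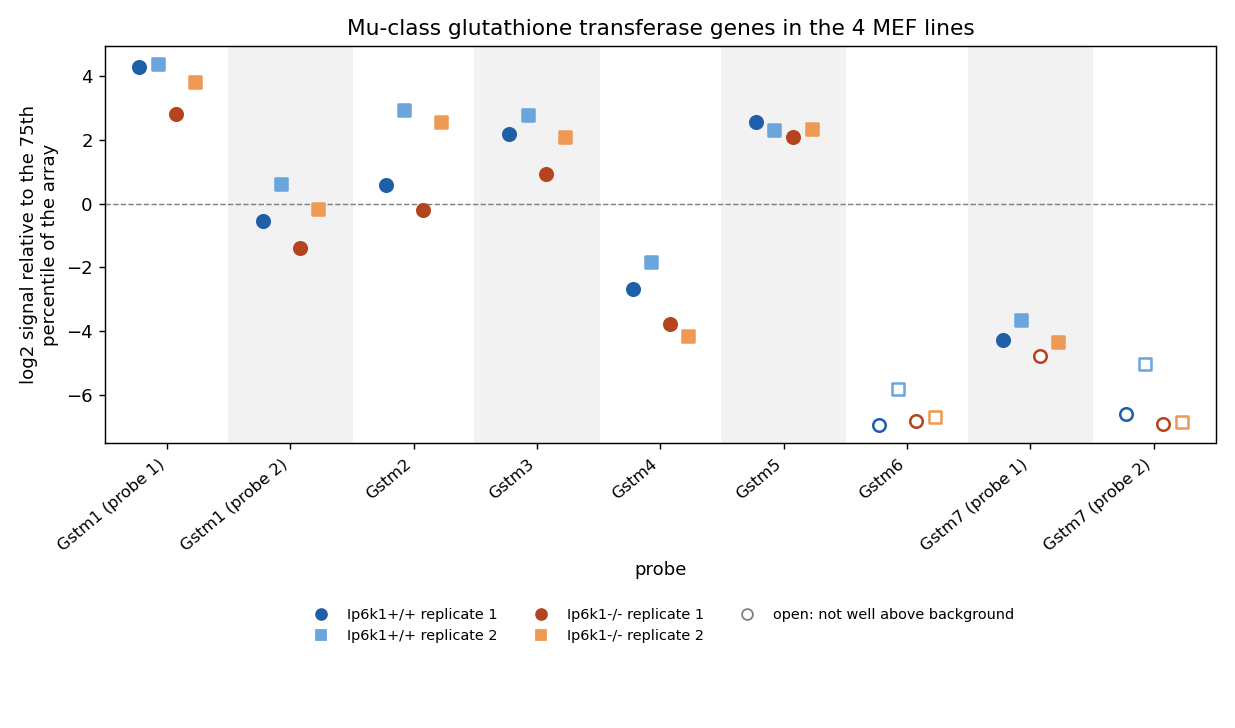
Log2 signal of the 9 probes of the mu-class transferase genes, relative to the 75th percentile of the array, in the 4 MEF lines. Open symbols were not well above background. Both Ip6k1-/- lines are below both Ip6k1+/+ lines for Gstm3, Gstm4, the first Gstm1 probe and the first Gstm7 probe, among the probes tested, while the Gstm2 lines separate by replicate number.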

How the data were processed

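The authors read the slide with Agilent Feature Extraction 10.5.1.1 and deposited the spot intensity of each array, background-corrected and on a linear scale. They also deposited a log2 table, shifted to the 75th percentile with GeneSpring, used here as an alternative. The processed intensity was converted to log2, the 75th percentile of the non-control spots was subtracted, outlier-flagged spots (96 to 133 per array) were left out, saturated spots were kept, and spots of a probe were averaged. A probe was tested if both arrays of a genotype, or of both, showed it well above background. The test was limma's (version 3.58.1, R 4.3.3), lmFit then eBayes using a variance trend, and the method was tested on simulated data. A gene is represented by its brightest tested probe, unsaturated where there was one. Where neither array of a genotype showed a probe well above background, a bound is given: the brighter mean against the lowest signal well above background, or the probe's own where higher.

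Genes named are the 10 members, Ip6k1, wider list genes that differed by at least 1, and each member's closest gene. Others (Bach1, Mafg, Nfe2l2, Keap1, Ccs, Glo1, Txnip and the Gstm family) were named after their values were seen, and cell type markers come from a fixed list. The members and lists were chosen with earlier results of these data known. Alternatives were other background corrections, normalizations, filters, fold rules and tests, leaving out each line, and a replicate block. Slide was no block because all 4 arrays share it. RT-qPCR, migration and mouse data were not analysed here.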

Additional observations from a re-analysis of the deposited data

How the results depend on the processing

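No member and no gene of the wider list was called under any adjusted test, 0 for both with the replicate block. With an unadjusted p of at most 0.05, a count added after seeing the data, 1 member and 4 genes of the wider list passed, and the methods' t-test before adjustment gave 2 of the wider list. Members lower past the 2-fold cutoff numbered 1, and 0 with each Ip6k1-/- line required to be 0.9 from the Ip6k1+/+ mean or with the array median subtracted, and 2 without a filter on dim probes. Leaving out 1 line gave 0 to 1 lower and 0 to 1 higher. In the wider list, 5 were lower: 1 under the rule for each line, 2 with normexp background correction, 3 with probes above background on all 4 arrays, and 6 to 10 leaving out 1 line. The 1 higher became 2 without a filter, 0 with normexp or with all 4 arrays, and 0 to 6 leaving out 1 line. Differences that changed sign were those of Gclm, 0.023 with the array median subtracted and 0.024 with normexp and -0.42 to 0.38 leaving out 1 line, of Gclc, -0.25 to 0.33, of Hmox1, -0.35 to 1.95, and of Sod1, -0.78 to 0.99. The median of the members went from -0.32 to 0.20 leaving out 1 line. The cause was not tested. The median of the transferase group stayed negative under every setting run, from -0.72 to -0.34. These settings were not planned for that group and reuse the same arrays. The median of all genes shifted by over 0.1 when no filter was used, to 0.18. The replicate numbers do not pair the lines by the labels. Replicate 1's deviations correlated between genotypes at 0.48 over the probes tested. The replicate block leaves each mean difference as it was, so the 2-fold counts could not change with it. Its limma adjusted p of the members ran from 0.489 for Gstm1 to 0.993 for Gclm, beside 0.993 to 0.998 without the block. No member and no gene of the wider list was called either way. Dim probes limit Gpx3, Sod3 and Sod1, and the number of arrays limits every value.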
